A study of Homo sapiens with 6 samples.

Results

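The NF-kB subunits and their inhibitors were followed in 6 RNA-seq libraries of A375 cells, an established human malignant melanoma line. The 10 genes were chosen by name, with earlier results of these data known, and all 10 are among the 58735 genes measured. They are the inhibitors NFKBIA, NFKBIB, NFKBIE, NFKBIZ and TNFAIP3, and the subunits NFKB1, NFKB2, RELA, RELB and REL. Both groups were A375 cells that differed by the label PAL, which stands for Ringer's lactate solution activated by low-temperature plasma, or control, with 3 libraries in each. The sources used here do not state the dose, the exposure time, the solution given to the control cells or whether replicates were separate cultures. The PAL columns of the table carry the number 64, which is not explained. P-values therefore cover only library-to-library spread, and that spread may be technical. A375 is 1 cell line, so the groups carry 1 genetic background.

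NF-kB is a family of dimeric transcription factors built from RELA, RELB, REL and the processed products of NFKB1 and NFKB2. In resting cells IkB proteins such as those encoded by NFKBIA, NFKBIB and NFKBIE bind the dimers and keep them largely out of the nucleus. Receptors for TNF, interleukin 1 and microbial products activate the IKK kinase complex, which marks IkB for degradation and frees the dimers. Freed dimers switch on inflammatory and survival genes together with their own inhibitors, above all NFKBIA and TNFAIP3, which gives a negative feedback loop. NF-kB activity and the chemokines it drives are well known features of melanoma cells.

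The start-site sequences are given first because NF-kB is known to act on several of these genes itself. The window runs from 250 bases before to 50 bases after a RefSeq start site on GRCh38.p14. It was searched on both strands for the kappa-B consensus, which reads GGG, a purine, any pair of bases, a pair of pyrimidines and CC. RefSeq windows were found for 8 of the 10 genes, with 14 start sites in all, and NFKBIE and RELB were not among them. Of these 8 genes, 7 held a match in at least 1 window, and 9 of the 14 windows did. The share was 11.3% of all 35116 windows in the table and 17.2% of the 8571 tested genes with a window. Among the 1343 tested genes with a window that fell in PAL it was 17.4%. The 8 genes were not picked at random, since several are textbook NF-kB targets, and a match is a run of letters and not a shown binding site.

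The windows of 4 genes are printed 5′ to 3′ on the strand of the gene, with matches in capitals. They belong to the inhibitors with the largest falls, NFKBIA (chr14:35404700-35404999, minus strand) and TNFAIP3 (chr6:137867009-137867308, plus strand), and to the subunits whose change did not pass, NFKB1 (chr4:102501109-102501408, plus strand) and RELA (chr11:65662867-65663166, minus strand).
NFKBIA: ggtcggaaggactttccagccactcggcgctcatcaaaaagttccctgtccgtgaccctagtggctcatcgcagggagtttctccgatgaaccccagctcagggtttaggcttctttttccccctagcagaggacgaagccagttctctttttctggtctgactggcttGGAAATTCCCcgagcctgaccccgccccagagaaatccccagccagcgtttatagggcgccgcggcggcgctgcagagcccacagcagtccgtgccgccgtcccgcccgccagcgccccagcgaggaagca
TNFAIP3: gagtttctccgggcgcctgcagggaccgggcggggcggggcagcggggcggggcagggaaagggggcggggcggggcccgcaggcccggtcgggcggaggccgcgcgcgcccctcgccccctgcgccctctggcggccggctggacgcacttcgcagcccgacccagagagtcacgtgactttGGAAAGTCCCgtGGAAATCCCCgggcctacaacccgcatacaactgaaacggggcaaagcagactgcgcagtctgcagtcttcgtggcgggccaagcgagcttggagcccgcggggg
NFKB1: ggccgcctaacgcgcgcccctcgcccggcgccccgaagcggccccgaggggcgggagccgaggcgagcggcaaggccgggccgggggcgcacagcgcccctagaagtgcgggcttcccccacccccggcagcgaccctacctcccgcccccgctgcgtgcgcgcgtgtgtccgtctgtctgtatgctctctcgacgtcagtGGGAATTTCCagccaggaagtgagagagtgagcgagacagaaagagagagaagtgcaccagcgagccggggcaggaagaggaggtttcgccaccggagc
RELA: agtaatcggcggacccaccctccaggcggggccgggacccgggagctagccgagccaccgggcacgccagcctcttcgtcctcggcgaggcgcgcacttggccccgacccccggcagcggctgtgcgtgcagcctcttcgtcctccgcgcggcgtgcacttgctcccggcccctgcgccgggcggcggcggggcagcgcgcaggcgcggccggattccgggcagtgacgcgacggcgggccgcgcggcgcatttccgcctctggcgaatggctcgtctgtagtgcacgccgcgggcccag

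Counted from the start site, the match in NFKBIA lay at -81 to -72. TNFAIP3 held 2 matches, at -67 to -58 and at -55 to -46. NFKB1 held 1 at -49 to -40 and no match in its other window. RELA held no match in this window or in its other one. The sites held by more than 1 gene, and the other one of TNFAIP3, read as follows on the strand of the motif.
NFKBIA, NFKBIB, NFKBIZ, NFKB1 and REL: GGGAATTTCC
TNFAIP3 and NFKB2: GGGACTTTCC
NFKBIB and REL: GGGAAATTCC
TNFAIP3, other site: GGGGATTTCC
The first of these, read on either strand, was in 5 of the 8 genes and in 51 of the 35116 windows (0.145%). The second was in 2 of the 8 and in 67 windows (0.191%). The third was in 2 of the 8 and in 57 windows (0.162%), and in NFKBIB and REL it overlaps the first site, shifted by 1 base on the opposite strand. A gene was counted if any of its windows matched, so shares of genes and of windows are not in like units. Genes with the shared site did not all behave alike: the ratio of control to PAL means was 3.55 for NFKBIA, whereas NFKB1 did not pass the test described next.

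Expression is given as FPKM, a read level scaled for gene length and library size, which allows levels of different genes to be set side by side. The libraries held 15064971 to 17711389 assigned reads each. The 12258 genes that reached 1 FPKM in 3 or more libraries were tested, and 9 of the 10 genes were among them, all but REL. The test was limma on log2(FPKM + 1), two-sided, with Benjamini-Hochberg adjustment over all tested genes and a threshold of 0.05. Of the tested genes, 14.5% passed as lower in PAL and 11.4% as higher, and their median log2 fold change was 0.0043. HSPA6, a stress-inducible HSP70, ranged from 1685 to 1999 FPKM in control and from 20.7 to 73.2 in PAL, and all 3 control libraries were the high ones. Its part in the results on NF-kB genes was not tested. How the control cells were handled is not stated, and a mix-up of labels or a stress on the control cells was not tested, so every direction given here rests on the labels as deposited. Of the melanocyte lineage markers, SOX10 stood at 88.1 ± 1.68 FPKM in control, MLANA was listed at 0 in all control libraries and TYR in all 6. The summed FPKM of all 10 lineage markers, most of it SOX10, was 100.1 to 103.6 in control and 119.3 to 120.5 in PAL. Of 5 tested, SOX10 rose to 107.6 ± 0.944 FPKM (adjusted p by limma = 3.88e-04), S100B fell from 5.18 to 4.03 (0.0300), and the median log2 fold change was -0.06.

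All 5 inhibitors fell in PAL, beside the 14.5% of tested genes that did, and 2 of 4 tested subunits fell. In bulk RNA, fewer cells with a transcript and less of it per cell cannot be told apart. The median log2 fold change was -1.25 over the inhibitors and -0.19 over the tested subunits. Of the tested genes of the group TNFAIP3 fell most, by a ratio of means of 7.39, followed by NFKBIA with 3.55 and NFKBIE with 2.75. For REL, which was not tested, the ratio was 3.65. RELA, the main activating subunit, was the only tested gene of the group with an estimate above 0, and it did not pass. All 5 inhibitors and 3 of the 4 tested subunits had every PAL library below every control library, which held for 23.6% of tested genes, while 0 of the 9 had every PAL library above, which held for 21.4%. The count of lowered inhibitors dropped from 5 to 3 without control replicate 2, PAL replicate 1 or PAL replicate 2, and that of subunits from 2 to 1 without PAL replicate 1 or PAL replicate 2.

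**Figure D1:**
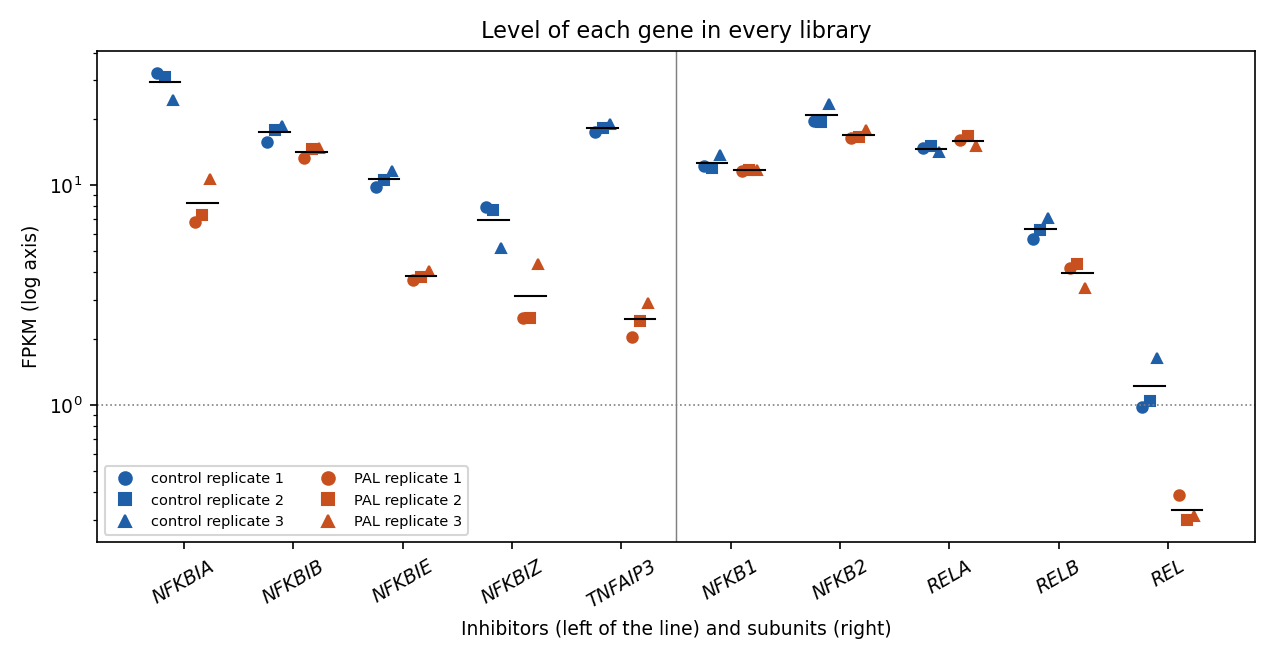
FPKM of each gene (log axis) in the 6 libraries, with control in blue, PAL in orange, replicates 1 to 3 as circle, square and triangle, and group means as black bars. The dotted line marks 1 FPKM. Among the inhibitors, TNFAIP3, NFKBIA and NFKBIE show the widest gaps, and the RELA points of both groups meet near 15.1 FPKM.

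TNFAIP3 (chromosome 6, 137867188 to 137883312) encodes A20, a ubiquitin-editing enzyme that shuts down signalling upstream of IKK. Levels in control replicates 1, 2 and 3 were 17.3, 18.1 and 18.9 FPKM, while PAL replicates 1, 2 and 3 held 2.03, 2.41 and 2.90. The groups were far apart, and the lowest control value was several times the highest PAL value. The mean went from 18.1 ± 0.758 to 2.45 ± 0.435 (SD, n = 3 each), a log2 fold change of -2.48 ± 0.09 (SE; adjusted p by limma = 1.30e-05). Ordered from the most lowered gene, TNFAIP3 ranked 21 of the 12258 tested. Its rank by control mean was 2649 and by PAL mean 9236, so it moved far down the order of expressed genes. The values rest on 1354 to 1475 reads per control library and 189 to 270 per PAL library.

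NFKBIA (chromosome 14, 35401511 to 35404749) encodes IkB-alpha, the classical inhibitor that NF-kB itself resupplies. The 3 control libraries, by replicate number, held 32.3, 31.1 and 24.5 FPKM, while PAL replicates 1, 2 and 3 held 6.80, 7.30 and 10.7. Both libraries numbered 3 stood nearer to the other group than their fellows, yet the groups did not overlap. The log2 fold change was -1.72 ± 0.17 (adjusted p by limma = 7.64e-04), as the mean went from 29.3 ± 4.21 to 8.25 ± 2.10 FPKM. With both libraries numbered 3 left out the log2 fold change was -2.02.

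NFKBIE (chromosome 6, 44258166 to 44265788), which encodes IkB-epsilon, another cytoplasmic inhibitor, had the smallest SD of the inhibitors in PAL, 0.188 FPKM. Control replicates 1, 2 and 3 held 9.74, 10.5 and 11.5 FPKM, while PAL replicates 1, 2 and 3 held 3.69, 3.83 and 4.06. The groups were well separated. NFKBIE had a log2 fold change of -1.25 ± 0.06 (adjusted p by limma = 4.59e-05). For TNFAIP3, NFKBIA and NFKBIE the call held in all 19 alternative fits.

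NFKBIZ (chromosome 3, 101827991 to 101861022) encodes IkB-zeta, a nuclear protein of the IkB family that can activate as well as repress NF-kB targets. Levels in control replicates 1, 2 and 3 were 7.93, 7.72 and 5.18 FPKM, while PAL replicates 1, 2 and 3 held 2.48, 2.49 and 4.38. Control replicate 3 and PAL replicate 3 came close to each other without crossing. NFKBIZ had a log2 fold change of -0.96 ± 0.21 (adjusted p by limma = 0.0168), and of -1.34 with both libraries numbered 3 left out. Its call was lost without control replicate 1 (adjusted p = 0.0513), control replicate 2 (0.0561), PAL replicate 1 (0.0546) or PAL replicate 2 (0.0603), and with no filter (0.0636).

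NFKBIB (chromosome 19, 38899700 to 38908893), which encodes IkB-beta, an inhibitor less tied to feedback than IkB-alpha, moved little. The 3 control libraries, by replicate number, held 15.7, 17.7 and 18.6 FPKM, while PAL replicates 1, 2 and 3 held 13.2, 14.5 and 14.7. The groups lay side by side, with about 1 FPKM between the lowest control and the highest PAL library. NFKBIB had a log2 fold change of -0.27 ± 0.07 (adjusted p by limma = 0.0264). The call was lost without control replicate 2 (adjusted p = 0.0781), control replicate 3 (0.0603), PAL replicate 1 (0.0783) or PAL replicate 2 (0.0614), with plain read totals (0.0582) and with no filter (0.0804).

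Of the subunits, RELB changed most among those tested. RELB (chromosome 19, 45001430 to 45038198) is the partner of the NFKB2 product in the non-canonical pathway. Control replicates 1, 2 and 3 held 5.66, 6.25 and 7.08 FPKM, while PAL replicates 1, 2 and 3 held 4.19, 4.36 and 3.38. No PAL library reached the control range. Its log2 fold change of -0.56 ± 0.10 (adjusted p by limma = 0.00833) held its call in all 19 alternative fits.

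NFKB2 (chromosome 10, 102394110 to 102402529) encodes p100, which holds RELB in the cytoplasm until it is processed to the active form. Levels in control replicates 1, 2 and 3 were 19.5, 19.3 and 23.3 FPKM, while PAL replicates 1, 2 and 3 held 16.3, 16.5 and 17.7. The groups did not overlap, and control replicate 3 lay well above its fellows. Its log2 fold change was -0.28 ± 0.07 (adjusted p by limma = 0.0326). It no longer passed when PAL replicate 1 (adjusted p = 0.0956) or PAL replicate 2 (0.0987) was left out, as TPM (0.0642), with plain read totals (0.0723), with no variance trend (0.0507) or with no filter (0.0994).

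NFKB1 (chromosome 4, 102501329 to 102617302) encodes p105, the precursor of the subunit that pairs with RELA. The 3 control libraries, by replicate number, held 12.2, 11.9 and 13.8 FPKM, while PAL replicates 1, 2 and 3 held 11.5, 11.7 and 11.7. PAL values sat just under the lowest control value. The log2 difference was -0.11 ± 0.05, with a 95% interval from -0.23 to 0.02 and a limma adjusted p of 0.194. It passed in 0 of 19 alternative fits.

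RELA (chromosome 11, 65653596 to 65663094) encodes p65, which carries a strong activation domain. Levels in control replicates 1, 2 and 3 were 14.79, 15.10 and 14.05 FPKM, while PAL replicates 1, 2 and 3 held 16.04, 16.62 and 15.05. PAL replicate 3 lay between control replicates 1 and 2, so the groups overlapped. The log2 difference was 0.11 ± 0.05, with an unadjusted 95% interval from 0.0018 to 0.22, and the limma adjusted p was 0.122. It passed as higher with a log2 fold change of 0.19 under each of 2 other scalings, TPM (adjusted p = 0.0242) and plain totals of reads (adjusted p = 0.0205). These scalings also moved the median of all tested genes, to 0.07 and 0.08. The share of higher genes among all calls went from 44.0% to 69.7% and 73.3%.

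REL (chromosome 2, 60881521 to 60931610), the subunit c-Rel best known from lymphocytes, was the lowest of the group. Control replicates 1, 2 and 3 held 0.979, 1.04 and 1.64 FPKM, while PAL replicates 1, 2 and 3 held 0.388, 0.300 and 0.313. All PAL libraries lay below all control libraries. These values rest on 203 to 334 reads per control library and 66 to 94 per PAL library, and the ratio of means was 3.65. REL missed the filter by 1 control library. In the fit with no filter, over 29505 genes, its log2 difference was -0.72 with a limma adjusted p of 0.0289.

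**Figure D2:**
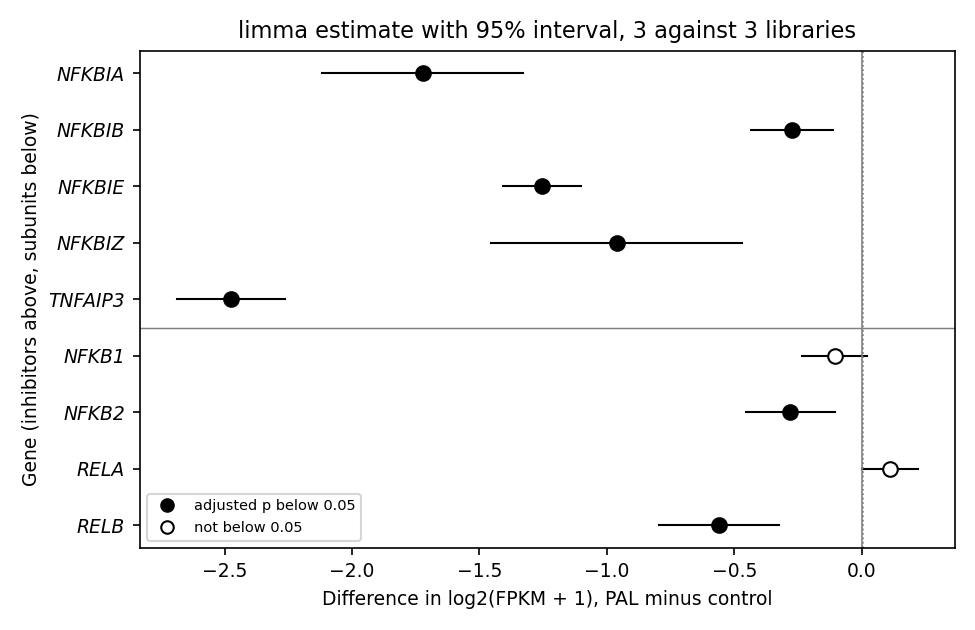
limma estimate and 95% interval of the difference in log2(FPKM + 1), PAL minus control, for the 9 tested genes, inhibitors above the line and subunits below. Filled points passed at an adjusted p below 0.05, and the open points of NFKB1 and RELA, at -0.11 and 0.11, did not.

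The order of levels changed with the group. In control, mean FPKM ran from NFKBIA through NFKB2, TNFAIP3, NFKBIB, RELA, NFKB1, NFKBIE, NFKBIZ and RELB down to REL. Neighbours in that order had separate ranges over libraries except TNFAIP3 with NFKBIB and NFKBIZ with RELB. In PAL the order ran from NFKB2 through RELA, NFKBIB, NFKB1, NFKBIA, RELB, NFKBIE, NFKBIZ and TNFAIP3 down to REL. There NFKB2 overlapped with RELA, and from RELB through NFKBIE and NFKBIZ to TNFAIP3 each neighbour overlapped with the next. An inhibitor thus led the list in control and a subunit in PAL, and TNFAIP3 moved from place 3 to place 9.

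The summed FPKM of the 5 inhibitors was 83.0, 85.1 and 78.6 in control replicates 1, 2 and 3 and 28.2, 30.6 and 36.7 in PAL replicates 1, 2 and 3. For the 5 subunits the sums were 53.2, 53.6 and 59.8 in control and 48.5, 49.5 and 48.2 in PAL. Inhibitor transcripts thus outnumbered subunit transcripts per length in every control library and fell short of them in every PAL library. The inhibitor to subunit ratio was 1.56, 1.59 and 1.31 in control and 0.582, 0.618 and 0.761 in PAL. The make-up within the inhibitors differed too: TNFAIP3 took 20.9% to 23.98% of their sum in control and 7.21% to 7.91% in PAL. Over the same libraries NFKBIB took 18.9% to 23.6% in control and 40.0% to 47.6% in PAL. Within the subunits RELA took 23.5% to 28.2% of the sum in control and 31.2% to 33.6% in PAL.

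Ratios of 2 genes in 1 library do not depend on how libraries were scaled. NFKBIA to RELA was 2.18, 2.06 and 1.74 in control replicates 1, 2 and 3 and 0.424, 0.439 and 0.708 in PAL replicates 1, 2 and 3. TNFAIP3 to RELA was 1.17, 1.20 and 1.34 in control and 0.127, 0.145 and 0.193 in PAL. Both inhibitors thus passed from above RELA to below it. RELB to RELA was 0.383, 0.414 and 0.504 in control and 0.261, 0.262 and 0.225 in PAL, and NFKB2 to NFKB1 was 1.60, 1.62 and 1.70 against 1.42, 1.41 and 1.52. On the log2 scale the differences, PAL minus control, were -1.96, -3.02, -0.79 and -0.18, in the order given, and none overlapped between groups. The exact permutation test, two-sided, gave p = 0.1 for each of the 4, adjusted p = 0.1, the smallest p that 3 against 3 libraries allow.

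**Figure D3:**
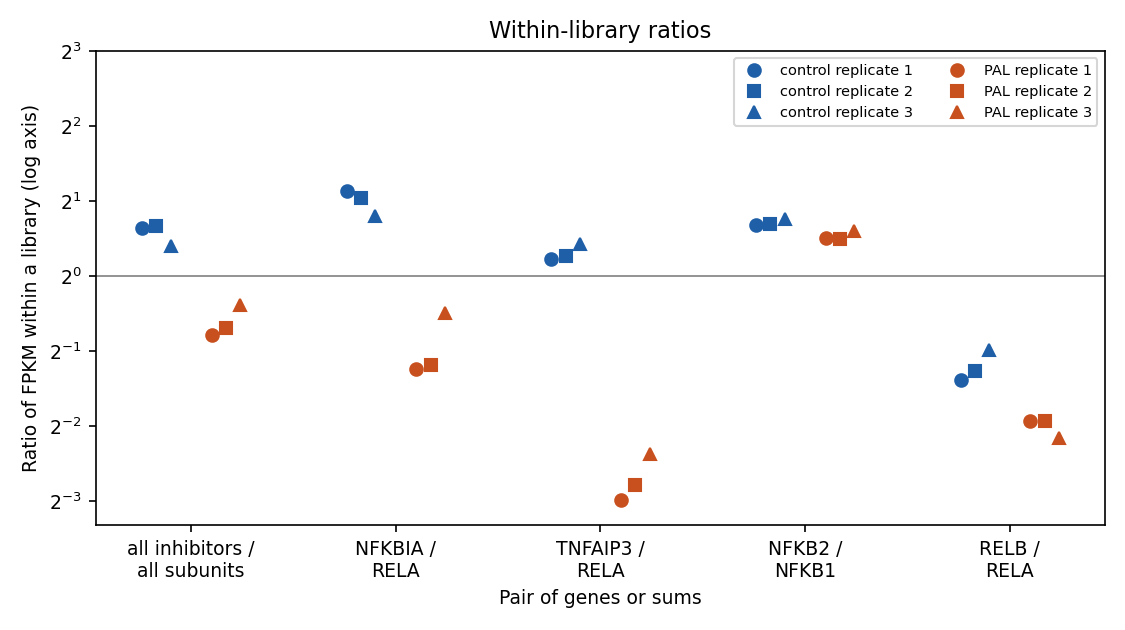
Ratio of FPKM within each library (log axis) for summed inhibitors over summed subunits and for 4 pairs of genes, control in blue and PAL in orange, replicates 1 to 3 as circle, square and triangle. Inhibitors over subunits lie at 1.31 or more in control and at 0.761 or less in PAL.

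The place of the libraries numbered 3 within their groups varied among these genes. Control replicate 3 had the highest control value for 7 of the 10 genes and the lowest for the other 3, NFKBIA, NFKBIZ and RELA. PAL replicate 3 had the highest PAL value for 6 genes, all 5 inhibitors and NFKB2. It had the lowest for 2, RELA and RELB, and the middle one for NFKB1 and REL. The shares over all tested genes were not computed, so these counts do not set the 10 genes apart. The immediate early gene FOS ran in the same order as NFKBIA, with 94.9, 75.9 and 32.8 FPKM over the control libraries by number and 9.60, 10.5 and 23.9 over the PAL libraries. HSPA6 ran in that order too, with 1999, 1960 and 1685 FPKM in control and 20.7, 27.4 and 73.2 in PAL. The part of FOS or HSPA6 in the results was not tested. With both libraries numbered 3 left out, 4 of 5 inhibitors and 2 subunits were lower, and NFKBIB was the inhibitor that did not pass (adjusted p = 0.0737). Of all 11741 genes tested in that fit, 1271 were lower and 937 higher.

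The other genes that the deposited table places in the Rel homology family, looked up after its columns were seen, are the NFAT factors. Of 4 tested, NFAT5, an osmotic stress factor, had a log2 fold change of -0.22 (adjusted p by limma = 0.0215), and NFATC1, NFATC2 and NFATC3 did not pass (adjusted p = 0.0837 to 0.923). NFATC4 was below the filter.

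The rest of the pathway was read by role, from ligands to targets. Ligands were scarce: 1 of 11 passed the filter, and TNFSF10 and CD40LG were listed at 0 in all libraries. IL1A, an alarm cytokine, was the tested one and fell from 1.79 ± 0.213 to 1.10 ± 0.183 FPKM (limma adjusted p = 0.0218). That call was lost without control replicate 2 (adjusted p = 0.0644) or PAL replicate 1 (0.0559). IL1A needed control libraries to pass the filter. It held 0.896, 1.24 and 1.18 FPKM in PAL replicates 1, 2 and 3 and 1.64 to 2.03 in control. TNF stood at 0.234 ± 0.0761 and 0.210 ± 0.0994 FPKM, below the filter.

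Of 9 tested receptors, 3 rose and 0 fell, beside 11.4% and 14.5% of all tested genes, with a median log2 fold change of 0.06. TNFRSF1A, the main TNF receptor, rose from 25.1 ± 0.640 to 33.1 ± 0.616 FPKM (0.39 on the log2 scale, limma adjusted p = 2.91e-04), in all 19 alternative fits. TLR6 and, outside the naming rule, LTBR passed narrowly (adjusted p = 0.0407 and 0.0403). TLR6 needed PAL libraries to pass the filter. It held 1.37, 1.02 and 0.995 FPKM in control replicates 1, 2 and 3 and 1.58 to 1.77 in PAL. Without control replicate 2, PAL replicate 1, PAL replicate 2 or PAL replicate 3, TNFRSF1A alone remained of the 3 (TLR6 adjusted p = 0.1091, 0.0821, 0.1206 and 0.0785, LTBR 0.0965, 0.0566, 0.1188 and 0.1131). LTBR was also lost without control replicate 1 (0.1117) or 3 (0.0539), and TLR6 without control replicate 3 (0.0954).

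Of 19 adaptors and ubiquitin ligases 1 was lower and 1 higher, beside 14.5% and 11.4% of all tested genes, with a median of -0.03. SHARPIN, part of the linear ubiquitin ligase that serves IKK, rose with a log2 fold change of 0.31 (adjusted p by limma = 0.00538). UBE2D3, an ubiquitin-conjugating enzyme, had one of -0.17 (adjusted p = 0.0105), a call lost as TPM (0.0646) or with plain read totals (0.0696). Under these 2 scalings 3 and 4 of the list were higher, 0 were lower and the median was 0.04 in both. In the IKK complex and its upstream kinases 3 of 11 were lower and 1 higher, beside 14.5% and 11.4% of all tested genes, with a median of -0.06. CHUK, which encodes IKK-alpha, had a log2 fold change of -0.20 (adjusted p = 0.0142), and TAB3, an adaptor of the kinase TAK1, one of -0.23 (0.00896). MAP3K14, the NIK kinase of the non-canonical pathway, rose from 6.63 ± 0.338 to 8.20 ± 0.457 FPKM (limma adjusted p = 0.0123). The call of CHUK was lost without PAL replicate 1 (adjusted p = 0.0531), and MAP3K7, named after its values were seen, passed at 0.0413 and in 7 of 19 alternatives. Without PAL replicate 1, with plain read totals or with replicate number as a block, the count of lowered genes in this list was 1. With both libraries numbered 3 left out 1 was lower and 0 were higher, as MAP3K14 did not pass (limma adjusted p = 0.0658). Leaving out any other single library gave 2 or 3 lowered genes.

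Among 12 other tested inhibitors and IkB-like genes 5 were lower and 1 higher, beside 14.5% and 11.4% of all tested genes. Their median was -0.06 (0.02 with plain read totals), against -1.25 for the 5 inhibitors above. NKRF, a repressor that binds NF-kB response elements, fell from 33.2 ± 4.90 to 11.5 ± 0.925 FPKM (limma adjusted p = 1.86e-04). NFKBID, a nuclear IkB-like protein, had 1.96 to 2.93 FPKM in control and 0.747 to 0.937 in PAL (adjusted p = 0.00325). It passed the filter only through control, where it is high, and so had to differ. Without it 4 of 11 were lower. CYLD, OTULIN and TAX1BP1, the others that fell and outside the naming rule, encode deubiquitinases and a partner of A20. Their log2 fold changes were -0.44, -0.31 and -0.27. TRAF3, which keeps NIK in check, rose with a log2 fold change of 0.22 (adjusted p = 0.0308). Its call was lost without any 1 of control replicates 1, 2 and 3 (adjusted p = 0.0685, 0.0922 and 0.0582) or of PAL replicates 1 and 2 (0.0909 and 0.0950). Leaving out any control replicate took the list to 11 tested genes, 4 of them lower.

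Of 31 target genes 23 were tested, and 14 of these were lower and 1 higher, beside 14.5% and 11.4% of all tested genes. BIRC3 and PTGS2, named after their values were seen, passed the filter only through control, where they are high, and so had to differ. Without them 12 of 21 were lower and 1 higher, and the median log2 fold change went from -0.78 to -0.35, against 0.0043 for all tested genes. CXCL3, named after its values were seen, stays among the 21 and was lower (limma adjusted p = 0.0119). It too needed control libraries to pass the filter, with 0.588, 0.675 and 1.22 FPKM in PAL and 1.69 to 2.48 in control. The list was drawn up with results of these data known. NUAK2, a kinase of cell survival, ranged from 10.6 to 11.8 FPKM in control and from 1.31 to 2.15 in PAL. GADD45B, a stress and survival protein, ranged from 40.6 to 59.6 and from 10.8 to 19.8 FPKM. Both kept their call in all 19 alternative fits. CCND1, cyclin D1, rose from 118 ± 3.17 to 129 ± 2.41 FPKM (limma adjusted p = 0.0178), a call lost without control replicate 2 (adjusted p = 0.0506), PAL replicate 1 (0.0535) or PAL replicate 2 (0.0623). Leaving out 1 library gave 12 to 15 lowered targets. Without control replicate 1, 2 or 3 the list held 21 tested genes and the median was -0.38, -0.37 and -0.37.

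**Figure D4:**
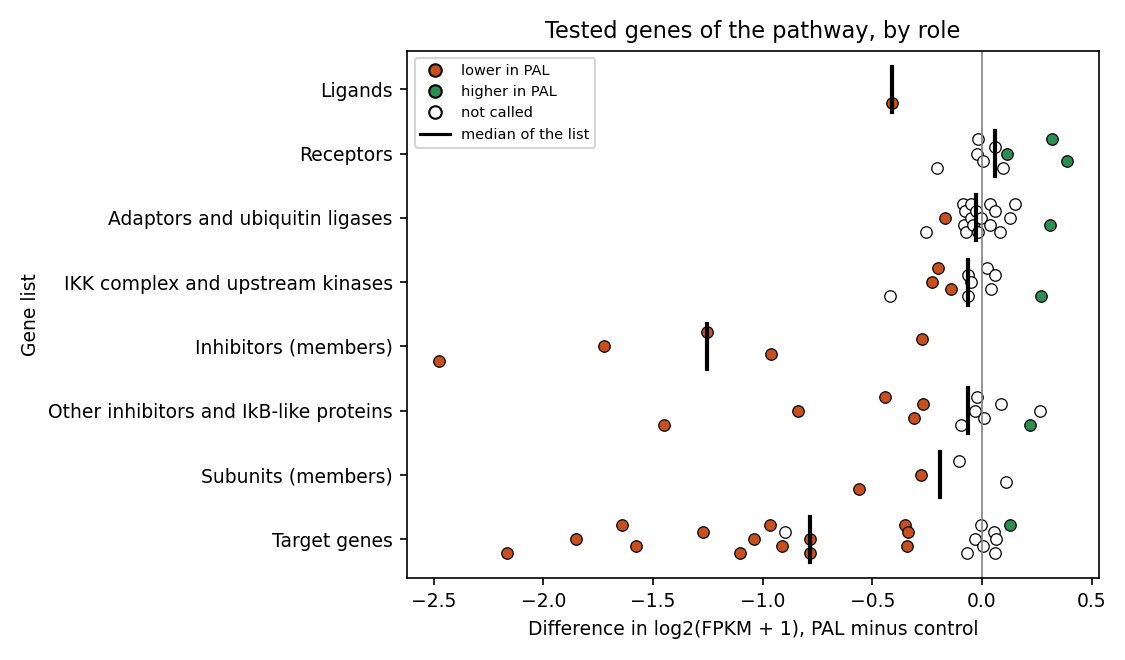
Difference in log2(FPKM + 1), PAL minus control, for each tested gene of the pathway, by role, with orange for lower, green for higher, open for not passed and a bar at the median of the list. As drawn, the lowest medians are those of the inhibitors at -1.25 and the target genes at -0.78, while receptors sit at 0.06. Without the genes that passed the filter only through control, the median of the target genes is -0.35. That is above the ligands, with 1 tested gene, at -0.41.

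Some of these genes share ground with neighbours. NFKBIB overlaps SIRT2 by 163 bases on the opposite strand, and SIRT2 stood at 3.90 ± 0.371 and 3.44 ± 0.192 FPKM. TNFAIP3 overlaps the antisense gene AL357060.1 over 1046 bases, which was at 0.217 ± 0.0305 and 0.244 ± 0.0611 FPKM. RELA overlaps AP001362.2 by 9 bases on the opposite strand, at 1.90 ± 0.132 and 2.55 ± 0.647 FPKM. REL overlaps AC010733.2 over 5702 bases and RNU4-51P over 140 bases, both on its own strand and both listed at 0 in all libraries. The sources used here do not state whether counting used strand or how reads in shared stretches were assigned, so such reads cannot be told apart.

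**Figure D5:**
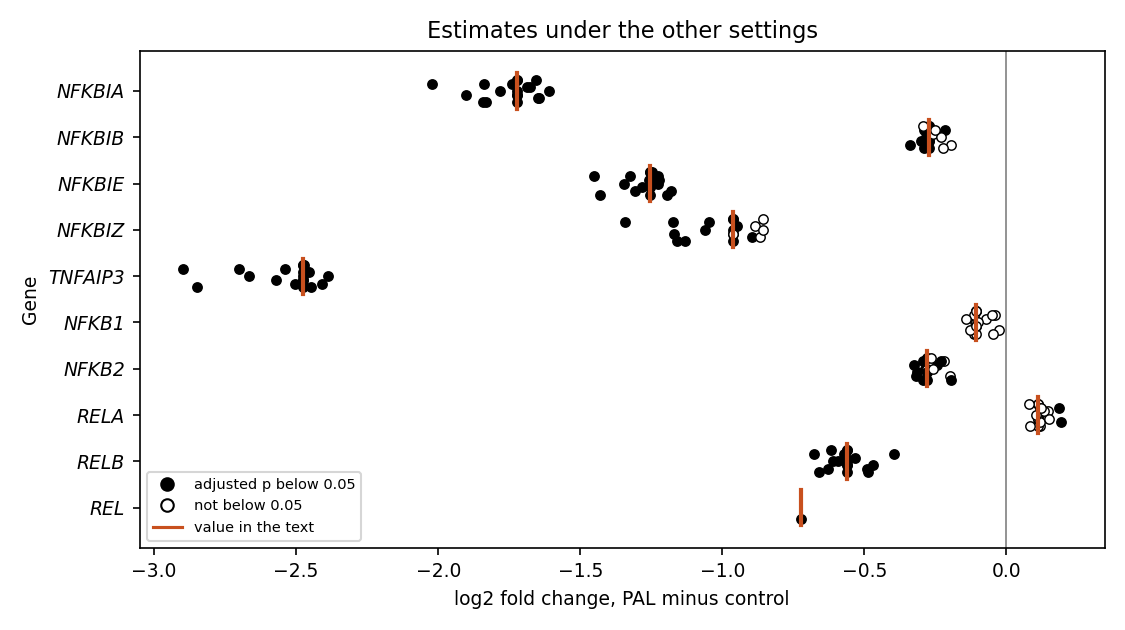
log2 fold change of each gene, PAL minus control, under the alternative settings, filled where the adjusted p was below 0.05, with an orange bar at the value in the text. TNFAIP3, NFKBIA, NFKBIE and RELB are filled in all 19, and NFKB1 in 0. REL has 1 point, from the fit with no filter.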

How the data were processed

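Poly-A enriched RNA of 3 PAL and 3 control libraries was compared, with groups and replicate numbers from the sample titles. The authors deposited 1 table of FPKM per gene, with gene length and position, and the submitters' processing notes name the build hg38. The sources used here do not state the aligner, counter or strand setting. All 10 genes have the start and end of GENCODE release 29. With 1 library size per column found from the steps of low values, each deposited FPKM, scaled by that size and its gene's length, came to whole reads (within 0.01 of a read, a tolerance widened in proportion for the highest counts) in 100% of values. That size was 0.980 to 0.984 of the read total in control and 1.04 to 1.05 in PAL, so the deposited scaling differs between groups from plain totals. Those reads give the depths and enter limma's voom.

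The main fit was limma 3.58.1 in R 4.3.3 with a variance trend, on log2(FPKM + 1), which understates low genes. It leaves 4 residual degrees of freedom. Ratios were tested by exact permutation (scipy 1.17.1). The code of the fit was tested on simulated data with far fewer changed genes than passed here. That does not show the error rate of the fit on these data. SOD2 stands in the table as 2 genes, and the better expressed one was used.

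Members, gene lists and tests were chosen with earlier results of these data known. Text names all 10 members and, per pathway list, up to 2 rises and 2 falls with the largest change among genes that passed. In all 19 alternative fits were run, and lists without genes that reach the filter in 1 group only were added after the data were seen. Figures used matplotlib 3.10.9.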

Additional observations from a re-analysis of the deposited data

How the results depend on the processing

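No log2 fold change of the 9 tested members or the pathway genes followed changed sign in the alternatives that held it. Those numbered 19 for each member and 14 for NFKBID. None of the 4 ratios changed sign either. BIRC3, PTGS2, CXCL3, NFAT genes, HSPA6, FOS and lineage markers were not followed over the alternatives. TNFAIP3, NFKBIA, NFKBIE and RELB passed in all 19, NFKBIB in 12, NFKBIZ and NFKB2 in 13, RELA in 2 and NFKB1 in 0. Of the pathway genes, TRAF3 passed in 12 fits, CHUK in 15, CCND1 in 13, LTBR in 9 and MAP3K7 in 7, and, of the 18 fits that held them, IL1A in 14 and TLR6 in 10. Lowered inhibitors, 5 in the text, numbered 3 with no filter and 3 to 5 when 1 library was left out. Lowered subunits, 2 in the text, numbered 1 as TPM, with plain read totals or with no variance trend, and 1 to 2 when 1 library was left out. As TPM or with plain read totals 1 subunit, RELA, was higher. Over all tested genes, 1780 were lower and 1399 higher. These became 1170 and 2697 as TPM, and 1130 and 3097 with plain read totals. With no filter, over 29505 genes, 1338 were lower and 765 higher. Leaving out 1 library gave 1170 to 1506 lower and 669 to 1208 higher, from fewer samples. The cause of the other shifts was not tested.

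Same-numbered libraries did not deviate together (correlation -0.024, 0.027 and -0.045 over tested genes). The labels do not state whether libraries of the same number were handled together, and these correlations cannot settle it. With a replicate block 4 inhibitors and 2 subunits were lower, NFKBIZ not passing (adjusted p = 0.0574). Of all 12258 tested genes, 1293 were lower and 838 higher in that fit. For the ratios, an exact permutation test within pairs of the same number gave p = 0.25, the smallest possible.

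Of the 10 members depth limits REL most, at 66 to 94 reads per PAL library, and REL entered only the fit with no filter. Among the tested pathway genes named, IL1A held 35 to 46 reads per PAL library and NFKBID 44 to 55. CXCL3 held 24 to 50 and PTGS2 30 to 49.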
